A study of Mus musculus with 2 samples.

Results

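The genes described here encode the proteins of the mitochondrial ribosome. They are every gene whose symbol is Mrpl or Mrps followed by a number and at most 1 letter. That rule uses no measured value, but the family was chosen with earlier results of these data known. The rule found 77 genes among the 46095 in the table, 48 with an Mrpl symbol and 29 with an Mrps symbol. All 77 were matched to the GENCODE mouse annotation M21, where they lie on 17 chromosomes, with 10 on chromosome 11 and 8 on chromosome 17.

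RNA was sequenced from acute myeloid leukaemia cells of C57BL/6 mice aged 8 weeks, sorted from bone marrow for Mac1 and KIT, a population that the labels call leukaemia-initiating. Cells labelled as a knockout of P2X1 (P2X1-KO), an ATP-gated cation channel encoded by P2rx1, were set against cells labelled wild type (WT). The comparison asks which transcripts differ when the channel is lost. Each group was 1 library, so the differences have no replicate check and no p-value is given. The protocol text also calls the groups P2X1-KD and P2X1-Scr, and neither the gene disruption used, the leukaemia driver nor the number of animals behind a library is given in the sources used here.

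The library labelled P2X1-KO held 9447894 counts over 16165 genes, and the WT-labelled library held 14658620 counts over 19824 genes. P2rx1 went against the labels. It had 45 counts, or 5.07 counts scaled to a common library size (CPM), in the P2X1-KO-labelled library and 27 counts, or 1.73 CPM, in the WT-labelled library, a fold of 2.93 (95% interval 1.78 to 4.90). Groups are therefore named below by their labels. Both sorted surface proteins were present, with Itgam (Mac1) at 504 CPM in the P2X1-KO-labelled library and 307 CPM in the WT-labelled library, and Kit at 19.9 CPM (labelled P2X1-KO) and 13.3 CPM (labelled WT). The summed markers of each other cell type, though not every marker, were also higher in the P2X1-KO-labelled library. The 12 late neutrophil markers summed to 12993 CPM there and to 3326 CPM in the WT-labelled library, with none at 0 in either. Of these, Ly6g alone went the other way, at 4.05 CPM (labelled P2X1-KO) and 6.99 CPM (labelled WT). The 11 monocyte and macrophage markers summed to 5702 CPM in the P2X1-KO-labelled library, where Mrc1 was at 0, and to 900 CPM in the WT-labelled library, where Ms4a7 was at 0. Ly6c2 made up most of that WT sum and was lower in the P2X1-KO-labelled library, at 497 CPM against 546 CPM (labelled WT). The 9 eosinophil, basophil and mast cell markers summed to 201 CPM (labelled P2X1-KO) and 35.2 CPM (labelled WT), with Ear1, Fcer1a and Il5ra at 0 in both. Mcpt8 went the other way and made up most of the WT sum, at 23.0 CPM (labelled P2X1-KO) and 34.0 CPM (labelled WT). Sums for 8 stromal markers were 250 CPM (labelled P2X1-KO) and 95.1 CPM (labelled WT), with Dcn and Lum at 0 in both. Pdgfrb went the other way and made up most of the WT sum, at 47.1 CPM (labelled P2X1-KO) and 93.1 CPM (labelled WT). Collagen genes Col1a2 and Col3a1 were at 0 in the WT-labelled library alone, and Cxcl12 and Lepr in the P2X1-KO-labelled library alone. The 9 B and T cell markers summed to 50.4 CPM (labelled P2X1-KO) and 16.7 CPM (labelled WT), with Cd3g, Cd4, Cd8a and Ms4a1 at 0 in both, and the 7 erythroid markers to 2.14 CPM (labelled P2X1-KO) and 0.962 CPM (labelled WT), with Alas2 and Hbb-bt at 0 in both. Their part in the results below was not tested. In bulk RNA, fewer cells of a type and less RNA per cell cannot be told apart.

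Mitochondrial ribosomes translate the few messenger RNAs encoded by mitochondrial DNA, all of which specify subunits of the oxidative phosphorylation complexes. Their ribosomal RNAs are mitochondrial transcripts, whereas every ribosomal protein is encoded in the nucleus, made on cytosolic ribosomes and imported. The small subunit decodes the messenger and the large subunit joins the amino acids. Some of the proteins descend from bacterial ribosomal proteins and others are found only in mitochondria. Blocking mitochondrial translation lowers the respiration on which many acute myeloid leukaemia cells are known to depend.

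Promoters of genes for mitochondrial proteins are known for binding sites of NRF1, of ETS factors such as GABPA, and of YY1. RefSeq promoter windows (GRCm38.p6), running from 250 bases before to 50 bases after a gene's start, were found for 68 of the 77 genes. The words searched on both strands were CGCANGCGC for NRF1, CCGGAAGT for ETS factors, AAGATGGC for YY1 and CACGTG for the E-box. A window could count for several words, also where they overlapped. The 120 bases before the start are shown for the 3 genes that stood highest in the P2X1-KO-labelled library and for 3 of those that stood lowest, with searched words in capitals. Mrpl38, the lowest, has no entry.
Mrps25, chr6:92184024-92184143, minus strand: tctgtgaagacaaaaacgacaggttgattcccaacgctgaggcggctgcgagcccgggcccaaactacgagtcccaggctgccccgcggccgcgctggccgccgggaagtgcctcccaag
Mrpl14, chr17:45686229-45686348, plus strand: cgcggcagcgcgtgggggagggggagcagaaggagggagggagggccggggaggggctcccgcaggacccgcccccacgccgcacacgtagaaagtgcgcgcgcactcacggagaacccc
Mrps21, chr3:95871515-95871634, minus strand: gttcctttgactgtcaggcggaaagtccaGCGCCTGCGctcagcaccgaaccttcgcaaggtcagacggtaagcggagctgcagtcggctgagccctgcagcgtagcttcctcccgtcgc
Mrpl3, chr9:105053148-105053267, plus strand: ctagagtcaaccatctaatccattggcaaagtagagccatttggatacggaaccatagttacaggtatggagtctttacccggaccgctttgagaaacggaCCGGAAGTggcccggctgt
Mrpl9, chr3:94443216-94443335, plus strand: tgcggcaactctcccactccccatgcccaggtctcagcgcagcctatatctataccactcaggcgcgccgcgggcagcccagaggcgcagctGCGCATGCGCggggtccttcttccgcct
Mrps9, chr1:42851113-42851232, plus strand: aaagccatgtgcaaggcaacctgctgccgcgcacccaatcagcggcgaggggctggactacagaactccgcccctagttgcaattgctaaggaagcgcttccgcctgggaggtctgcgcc
An NRF1 word stood in the Mrps21 and Mrpl9 sequences and an ETS word in that of Mrpl3. The shown stretches of Mrps25, Mrpl14 and Mrps9 held none of the words, but the full windows of Mrpl14 and Mrps9 held the NRF1 word elsewhere. Over the 68 windows, 18 (26.5%) held the NRF1 word, against 9.7% of the windows of 17492 protein-coding genes and 17% of those of the 7619 such genes with a mean of 5 CPM or more. The ETS word stood in 12 (17.6%), against 5.7% of protein-coding genes and 10.5% of the expressed ones. For the YY1 word the count was also 12 (17.6%), against 3.6% of protein-coding genes and 6.1% of the expressed ones. The E-box word stood in 5 windows (7.4%), against 8.9% of protein-coding genes and 12.6% of the expressed ones. At a mean of 5 CPM or more, the 17 genes with the NRF1 word had a median log2 difference (P2X1-KO minus WT) of -0.06 and the 48 without it a median of 0.21. The medians for genes with and without the ETS word were 0.12 and 0.16, and those for genes with and without the YY1 word 0.12 and 0.17. For the E-box word it went the other way, with 0.26 for the 5 genes with it and 0.14 for the 60 without.

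As a group the mitochondrial ribosomal protein genes were close in level between the libraries. A log2 difference here is log2(CPM + 0.5) in the P2X1-KO-labelled library minus the same in the WT-labelled library, on counts scaled with TMM, the trimmed mean of M values. The genes took 0.425% of all counts in the P2X1-KO-labelled library (40174 counts, exact 95% interval 0.4211 to 0.4294) and 0.429% in the WT-labelled library (62895 counts, 0.4257 to 0.4324). After TMM scaling their summed CPM stood in a ratio of 1.12 (1.11 to 1.14), which became 0.992 with scaling by total counts. Of the 77, 74 had a mean of 5 CPM or more. Their median log2 difference was 0.15, with a spread between quartiles from -0.21 to 0.45, and it turned to -0.03 with total counts, to -0.05 without the 20 most abundant genes and to -0.10 after correction for transcript length and GC content. The same median over all 10483 genes at this level was -0.08, with quartiles at -0.56 and 0.47.

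Most of the genes lay within 1.5-fold of their level in the other library. That held for 51 of the 74 (68.9%), against 5651 of all 10483 genes (53.9%). At least 1.5-fold higher in the P2X1-KO-labelled library were 17 (23.0%), against a background of 21.9% of all genes, and at least 1.5-fold lower were 6 (8.11%), against 24.2%. With scaling by total counts these became 6 higher and 11 lower, against 16.9% and 33.3% of all genes. At 2-fold, 3 were higher (background 12.1%) and 1 was lower (background 10.6%). The exact interval of the fold, which covers counting error only, lay above 1 for 35 genes (background 35.9%) and below 1 for 19 (background 43.7%), and it held 1 for the other 20. Scaling by total counts divides every fold by 1.13, and totals without the 20 most abundant genes divide it by 1.15. Folds within 1.15 of 1 therefore carry no direction here.

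**Figure D1:**
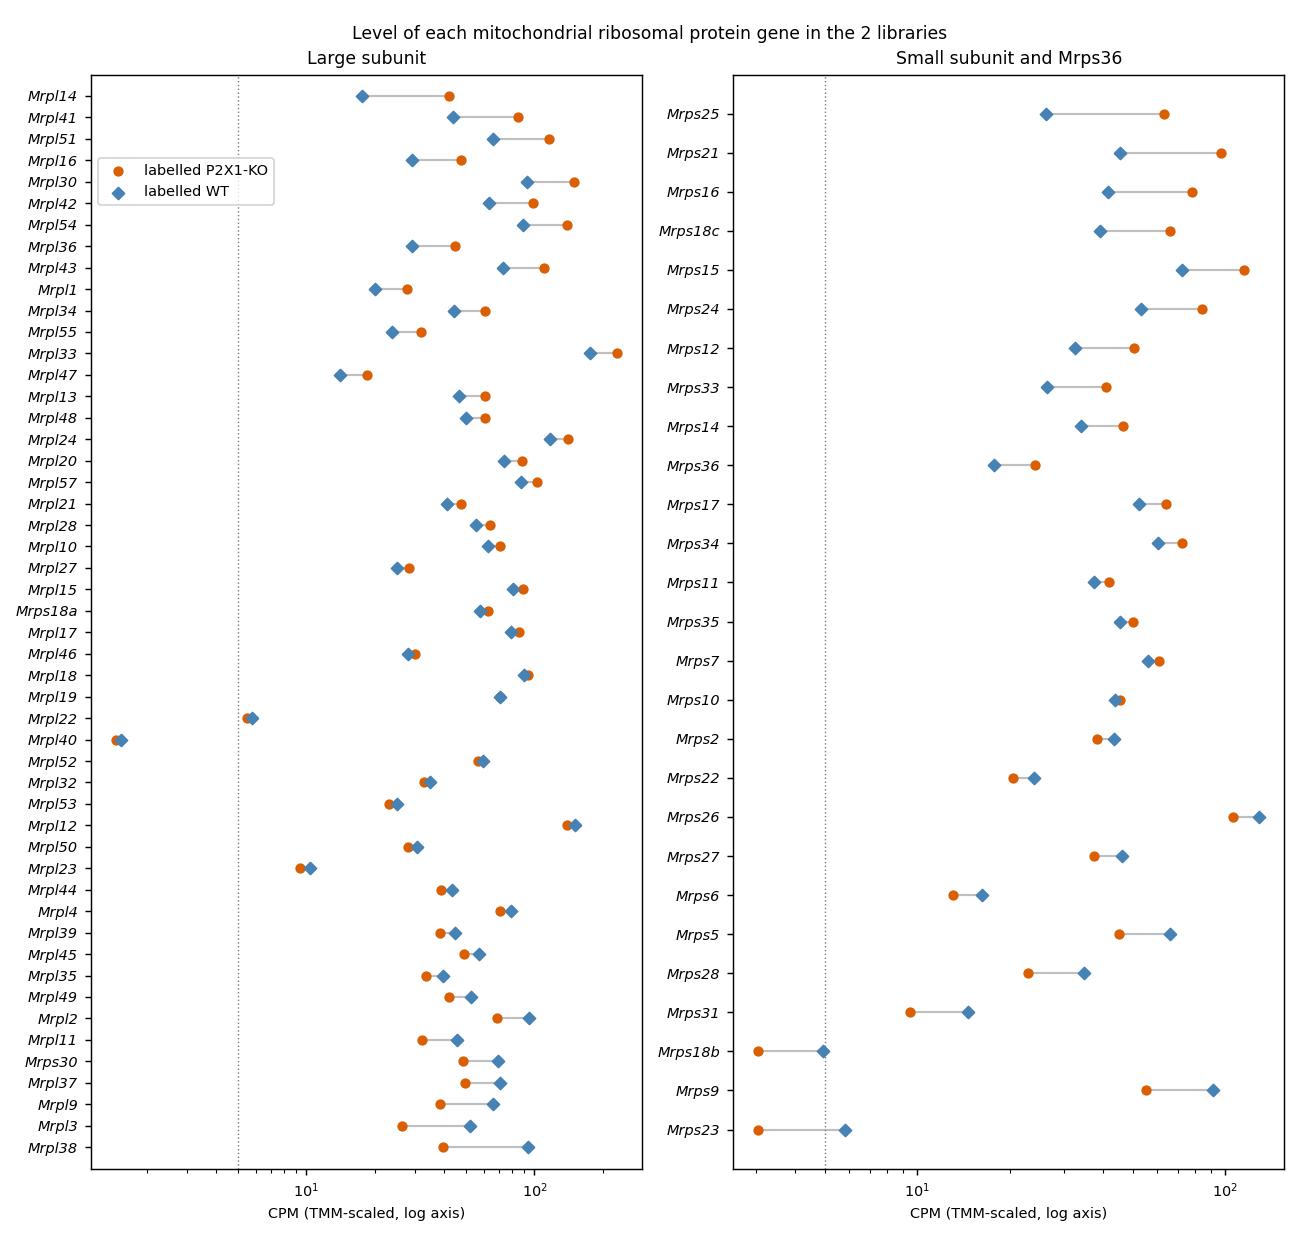
Level of each of the 77 genes in CPM on a log axis, with an orange circle for the P2X1-KO-labelled library and a blue diamond for the WT-labelled library, 1 library each. Genes are sorted by fold within the large subunit (left) and the small subunit with Mrps36 (right), and the dotted line marks 5 CPM. Mrpl14 (42.3 CPM labelled P2X1-KO, 17.5 CPM labelled WT) and Mrps25 (63.2 CPM labelled P2X1-KO, 26.2 CPM labelled WT) head the panels, and Mrpl38 (39.7 CPM labelled P2X1-KO, 93.6 CPM labelled WT) stands last in the left one.

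The widest difference upward was that of Mrpl14 and Mrps25. Mrpl14, the counterpart of bacterial L14 at the face between the subunits, where the factor MALSU1 docks during assembly, lies at chr17:45686322-45698495 (plus strand, in mm10 like all coordinates of genes here). It had 376 counts, or 42.3 CPM, in the P2X1-KO-labelled library and 273 counts, or 17.5 CPM, in the WT-labelled library, a fold of 2.42 (2.06 to 2.84). Mrps25, a mitochondria-specific protein of the small subunit, lies at chr6:92169525-92184033 (minus strand). It had 561 counts, or 63.2 CPM, in the P2X1-KO-labelled library and 409 counts, or 26.2 CPM, in the WT-labelled library, a fold of 2.41 (2.12 to 2.74). Of the 31-base words in Mrps25 transcripts, 74.6% also occurred in other genes, chiefly Nr2c2 on the opposite strand, so its value is uncertain where the counting ignored strand. Nr2c2 itself had 61.8 CPM in the P2X1-KO-labelled library and 77.9 CPM in the WT-labelled library.

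Mrps21, the counterpart of bacterial S21, lies at chr3:95862634-95871519 (minus strand). It had 863 counts, or 97.2 CPM, in the P2X1-KO-labelled library and 708 counts, or 45.4 CPM, in the WT-labelled library, a fold of 2.14 (1.93 to 2.37). Its annotated transcripts are short, with a median of 446.5 bases. Its length- and GC-corrected log2 difference was 0.18, whereas that of Mrps25, with an annotated 6073 bases, was 1.81.

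The gene furthest down was Mrpl38, a mitochondria-specific protein of the central protuberance, the part of the large subunit that faces the head of the small one. It lies at chr11:116131817-116138868 (minus strand). Mrpl38 had 353 counts, or 39.7 CPM, in the P2X1-KO-labelled library and 1460 counts, or 93.6 CPM, in the WT-labelled library, 2.36-fold lower (2.10 to 2.65). None of its 31-base words occurred in another gene, and its corrected log2 difference was -1.43. Next came Mrpl3, the counterpart of bacterial L3, which reaches towards the peptidyl transferase centre, at chr9:105053239-105079888 (plus strand). Mrpl3 had 234 counts, or 26.3 CPM, in the P2X1-KO-labelled library and 816 counts, or 52.3 CPM, in the WT-labelled library, 1.99-fold lower (1.72 to 2.31).

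Among large subunit proteins with bacterial counterparts outside the named sites, 4 of 21 were at least 1.5-fold higher (all genes 21.9%) and 2 were at least 1.5-fold lower (all genes 24.2%). The median log2 difference of these 21 was 0.21, and 0.03 with total counts. Beside Mrpl14, the higher ones included Mrpl30, at 149 CPM in the P2X1-KO-labelled library and 93.1 CPM in the WT-labelled library, a fold of 1.60 (1.49 to 1.73). Beside Mrpl3, the other lower gene was Mrpl9, at 38.5 CPM in the P2X1-KO-labelled library and 65.7 CPM in the WT-labelled library, 1.71-fold lower (1.51 to 1.94). Mrpl2, the counterpart of bacterial L2, which helps to shape the catalytic centre, stood at 68.3 CPM (labelled P2X1-KO) and 94.7 CPM (labelled WT), within 1.5-fold.

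The other large subunit proteins outside the named sites, grouped as mitochondria-specific but including the S18-related Mrps18a, were at least 1.5-fold higher in 4 of 11 cases and lower in none, against the same shares of all genes. Their median log2 difference was 0.12, and -0.06 with total counts. Mrpl41 was highest, at 84.4 CPM in the P2X1-KO-labelled library and 43.9 CPM in the WT-labelled library, a fold of 1.92 (1.73 to 2.14). Mrpl51 followed at 116 CPM (labelled P2X1-KO) and 65.8 CPM (labelled WT), a fold of 1.76 (1.62 to 1.92). At the other end stood Mrpl37 and its relative Mrps30, which despite its symbol is a large subunit protein. Mrpl37 had 49.4 CPM in the P2X1-KO-labelled library and 70.6 CPM in the WT-labelled library, and Mrps30 had 48.6 CPM (labelled P2X1-KO) and 69.1 CPM (labelled WT), both within 1.5-fold.

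The stalk recruits translation factors to the large subunit. Of its 5 genes, 1 was at least 1.5-fold higher, Mrpl54, at 139 CPM in the P2X1-KO-labelled library and 89.1 CPM in the WT-labelled library, a fold of 1.56 (1.44 to 1.69), and its corrected log2 difference was -0.26. Mrpl12, the stalk protein that contacts those factors, had 139 CPM in the P2X1-KO-labelled library and 151 CPM in the WT-labelled library. Mrpl10, on which copies of Mrpl12 are mounted, had 70.7 CPM (labelled P2X1-KO) and 62.7 CPM (labelled WT). Mrpl11, at the stalk base, had 32.2 CPM in the P2X1-KO-labelled library and 45.8 CPM in the WT-labelled library, a fold of 0.703 (0.611 to 0.808). Mrpl53 had 23.1 CPM (labelled P2X1-KO) and 25 CPM (labelled WT), and every 31-base word of it also occurred in the gene model Gm42688, so its reads may be split.

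Apart from Mrpl38, the central protuberance genes at a mean of 5 CPM or more were near equal between the libraries. Mrpl18 had 93.7 CPM in the P2X1-KO-labelled library and 90.1 CPM in the WT-labelled library, Mrpl46 had 29.8 CPM (labelled P2X1-KO) and 28.0 CPM (labelled WT), and Mrpl48 had 61.0 CPM (labelled P2X1-KO) and 50.2 CPM (labelled WT). Intervals of the first 2 held 1 and that of Mrpl48 ran from 1.09 to 1.36. Mrpl40 was under 5 CPM, with 13 counts in the P2X1-KO-labelled library and 24 in the WT-labelled library, a fold of 0.951 (0.445 to 1.94).

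At the exit of the peptide tunnel, where the new chain meets the inner membrane, all 8 genes lay within 1.5-fold, as did 53.9% of all genes. Folds ran from 0.859 for Mrpl45, which tethers the ribosome to the membrane, to 1.31 for Mrpl47. Mrpl45 had 49.0 CPM in the P2X1-KO-labelled library and 57.0 CPM in the WT-labelled library. Mrpl24, near the exit, had 141 CPM (labelled P2X1-KO) and 117 CPM (labelled WT). Mrpl22 and Mrpl23 rested on few counts, at 5.52 and 9.34 CPM in the P2X1-KO-labelled library and at 5.77 and 10.4 CPM in the WT-labelled library. Of Mrpl23's words, 53.0% were shared with its pseudogene Mrpl23-ps1, which had 92 counts in the P2X1-KO-labelled library and 88 in the WT-labelled library.

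**Figure D2:**
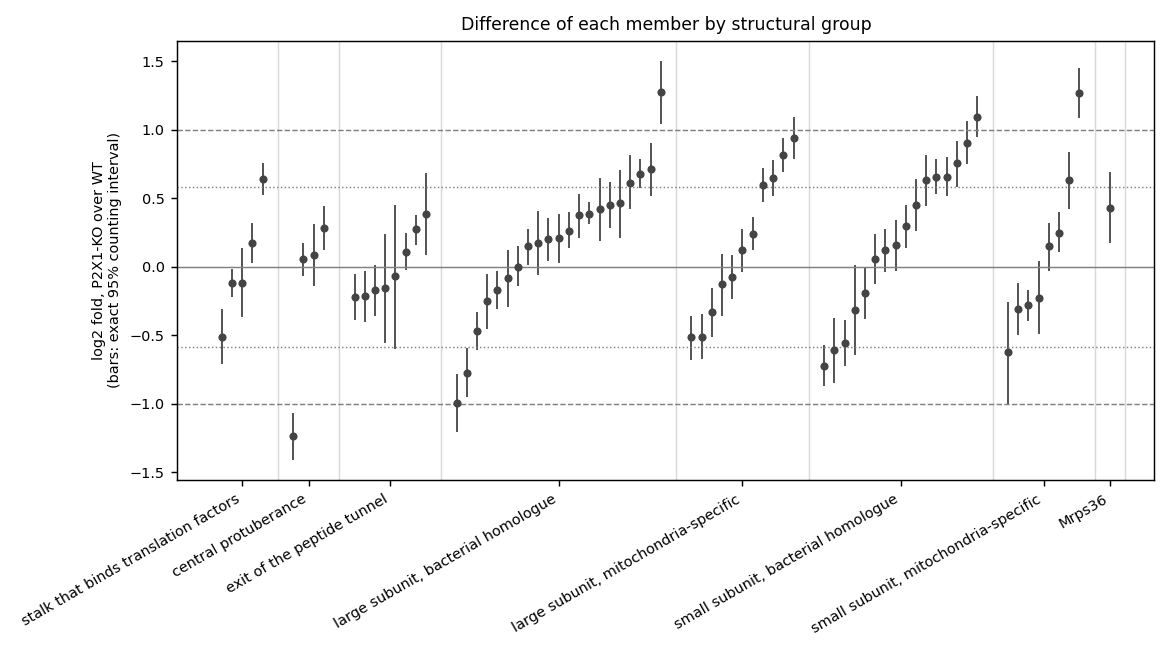
Log2 fold of each of the 74 genes with a mean of 5 CPM or more, P2X1-KO over WT (vertical axis), by structural group and sorted within each, 1 library a label. Bars are exact 95% intervals for counting error, dotted lines mark 1.5-fold and dashed lines 2-fold. All 8 tunnel exit genes lie inside the dotted lines (53.9% of all genes do), and Mrpl38 is the lowest point, in the central protuberance group.

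Log2 differences spread over 0.92 between quartiles in the small subunit and over 0.56 in the large one, a gap that was not tested. In the small subunit 8 of 24 genes were at least 1.5-fold higher, 3 were at least 1.5-fold lower and 13 lay within, against 21.9%, 24.2% and 53.9% of all genes. Its median log2 difference was 0.15 and that of the 49 large subunit genes was 0.12, of which 9 were higher, 3 lower and 37 within, and both medians were below 0 with total counts (-0.03 for the small and -0.06 for the large subunit). Among proteins with bacterial counterparts, Mrps16 stood at 78.0 CPM in the P2X1-KO-labelled library and 41.6 CPM in the WT-labelled library, a fold of 1.87 (1.68 to 2.09). Mrps15 stood at 115 CPM (labelled P2X1-KO) and 72.5 CPM (labelled WT), a fold of 1.58 (1.45 to 1.73). Mrps12, the counterpart of S12 at the decoding centre, had 50.5 CPM in the P2X1-KO-labelled library and 32.6 CPM in the WT-labelled library, a fold of 1.55 (1.36 to 1.76). The remaining 6 genes at least 1.5-fold higher, Mrpl16, Mrps24, Mrpl42, Mrps33, Mrpl36 and Mrpl43, had folds from 1.51 (Mrpl43) to 1.64 (Mrpl16).

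The lower genes of this kind were Mrps9 and Mrps28. Mrps9, in the head of the small subunit, lies at chr1:42851233-42905683 (plus strand) and had 55.3 CPM in the P2X1-KO-labelled library and 91.1 CPM in the WT-labelled library, 1.65-fold lower (1.49 to 1.83). Mrps28 had 22.9 CPM (labelled P2X1-KO) and 34.8 CPM (labelled WT), 1.52-fold lower (1.29 to 1.80). Mrps5, the counterpart of S5 at the messenger's path, was within 1.5-fold, at 45.1 CPM in the P2X1-KO-labelled library and 66.3 CPM in the WT-labelled library. Of the 8 mitochondria-specific small subunit genes at a mean of 5 CPM or more, 2 were at least 1.5-fold higher, Mrps25 and Mrps33, and 1 was lower, Mrps31, at 9.46 CPM in the P2X1-KO-labelled library and 14.6 CPM in the WT-labelled library.

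The proteins related to bacterial S18 are 3 in number and take different places in the ribosome. Mrps18c, in the small subunit, had 66.0 CPM in the P2X1-KO-labelled library and 39.1 CPM in the WT-labelled library, a fold of 1.69 (1.5 to 1.89), and its corrected log2 difference was -0.01. Mrps18a, in the large subunit, had 62.8 CPM (labelled P2X1-KO) and 57.7 CPM (labelled WT). Mrps18b was low, with 27 counts in the P2X1-KO-labelled library and 77 in the WT-labelled library, 1.62-fold lower (1.04 to 2.62), and 62.6% of its words occurred in other genes. Mrps23, a mitochondria-specific protein, was as low, with 27 counts (labelled P2X1-KO) and 91 (labelled WT), 1.92-fold lower (1.24 to 3.07). Mrps36, which in mammals is known as a subunit of the 2-oxoglutarate dehydrogenase complex and was assigned to no ribosomal subunit here, had 24.1 CPM in the P2X1-KO-labelled library and 17.8 CPM in the WT-labelled library.

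Levels between genes are compared per length, as CPM per 1000 bases of the median coding transcript. That length comes from the annotation, and the transcripts expressed here may be longer or shorter. On this scale the 77 genes ranged from 1.42 to 481 in the P2X1-KO-labelled library, with a median of 33.9, and from 1.5 to 366 in the WT-labelled library, with a median of 33.0. Mrpl33, the counterpart of bacterial L33, was highest in both, at 481 CPM per 1000 bases labelled P2X1-KO and 366 labelled WT. In the P2X1-KO-labelled library Mrpl54 came next, at 230, against 147 labelled WT. Then, in the order of that library, came Mrpl30 at 225 (P2X1-KO) and 141 (WT), Mrps21 at 218 (P2X1-KO) and 102 (WT), and Mrpl20 at 179 (P2X1-KO) and 149 (WT). In the WT-labelled library Mrpl20 was second, and Mrps21 stood behind Mrpl52 and Mrpl12. Of the 10 highest in each library, 8 were shared. Lowest, in the order of the P2X1-KO-labelled library, were Mrpl40 at 1.42 (P2X1-KO) and 1.5 (WT), Mrps23 at 2.28 (P2X1-KO) and 4.38 (WT), and Mrps18b at 3.23 (P2X1-KO) and 5.25 (WT). Mrpl47 had 5.49 (P2X1-KO) and 4.19 (WT), and Mrpl1, named by its mean over both, had 8.01 (P2X1-KO) and 5.81 (WT), also per 1000 bases. In the WT-labelled library Mrpl40 was lowest too, then Mrpl47 and then Mrps25 at 4.32.

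Differences tracked transcript length, in these genes and in the whole table. The 74 genes had a median transcript length of 1224 bases, against 2556 for the 10257 genes with a known length. Log2 length and log2 difference correlated across the 74 genes with a Pearson r of -0.26 and a Spearman rho of -0.37, and across all 10257 with -0.26 and -0.33, as a description over genes of the same 2 libraries. Under 1000 bases, the 29 genes had a median of 0.41 and all genes of that length a median of 0.55. From 1000 to 2000 bases the medians were 0.05 for 26 genes and 0.09 for all, and from 2000 bases -0.08 for 19 genes and -0.26 for all. After correction within 20 bins of length and then of GC content, 31 of the 74 genes were above 0 and 43 below. Of all 10257 genes, 5120 were above 0 and 5120 below, since the correction sets the median of each bin to 0.

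**Figure D3:**
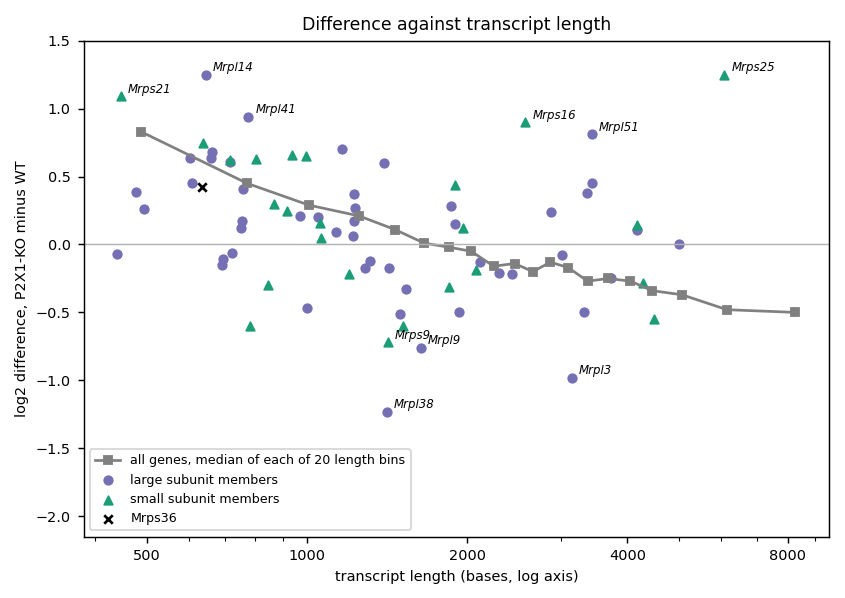
Log2 difference, P2X1-KO minus WT, against transcript length in bases on a log axis, for the 74 genes with a mean of 5 CPM or more (circles for large subunit, triangles for small subunit, a cross for Mrps36), 1 library a label. Grey squares are medians of all genes in 20 length bins and run from 0.83 in the shortest bin to -0.50 in the longest. Mrps25, Mrps16 and Mrpl51 lie far above that line, and Mrpl38 far below it. Lengths are medians of annotated transcripts and may differ from those of the transcripts expressed, which was not tested.

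Where transcripts share sequence, counts may be split or pooled, and this was described with 31-base words. In 53 of the 74 genes at most 20% of words occurred in another gene, and these had a median log2 difference of 0.09, with 10 at least 1.5-fold higher and 6 lower. In the other 21 the median was 0.37, with 7 higher and none lower. Over the 50 genes with no exon overlapping another gene, the median was 0.13, with 12 higher and 5 lower. Of all genes, 21.9% were at least 1.5-fold higher and 24.2% lower.

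Many of these genes sit head to head with another coding gene, their starts within 1000 bases of each other. This held for 32 of the 77, and in 26 pairs both genes had a mean of 5 CPM or more. The sign of the log2 difference was the same in 9 of the 26. The same share over all head-to-head pairs of the table was not computed. Some of these signs also belong to folds within 1.15 of 1, which carry no direction here. Mrps12 and Sars2, the mitochondrial seryl-tRNA synthetase, start 172 bases apart, and Sars2 had 33.2 CPM in the P2X1-KO-labelled library and 43.4 CPM in the WT-labelled library, whereas Mrps12 stood 1.55-fold higher. Mrpl36 and the complex I subunit gene Ndufs6 both stood higher, Ndufs6 at 99.4 CPM (labelled P2X1-KO) and 56.8 CPM (labelled WT). Mrps11 and Mrpl46, both in the family, had log2 differences of 0.16 and 0.09, too small to carry a direction.

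The RNAs of this ribosome stood higher in the P2X1-KO-labelled library, also with total counts. The 2 RNAs, Rnr1 and Rnr2, which were named after their values were seen, took 0.547% of counts in the P2X1-KO-labelled library and 0.356% in the WT-labelled library. Rnr1 of the small subunit had 2306 CPM in the P2X1-KO-labelled library and 1400 CPM in the WT-labelled library, a fold of 1.65 (1.62 to 1.68). Rnr2 of the large subunit had 3515 CPM (labelled P2X1-KO) and 1950 CPM (labelled WT), a fold of 1.80 (1.77 to 1.83). How ribosomal RNA was handled in library preparation is not stated in the labels.

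Proteins of the same ribosome with other gene names stood higher for 3 of 6 genes and lower for none at 1.5-fold. Of all genes, 21.9% stood higher and 24.2% lower. The median of the list was 0.52, which became 0.35 with total counts and 0.21 after length and GC correction. Chchd1 had 90.5 CPM in the P2X1-KO-labelled library and 47.2 CPM in the WT-labelled library, a fold of 1.92 (1.73 to 2.12), and Gadd45gip1 had 92.0 CPM (labelled P2X1-KO) and 49.6 CPM (labelled WT), a fold of 1.85 (1.68 to 2.05). Dap3 and Ptcd3 were within 1.5-fold, Dap3 at 84.5 CPM (labelled P2X1-KO) and 89.9 CPM (labelled WT), and Ptcd3 at 47.1 CPM (labelled P2X1-KO) and 57.5 CPM (labelled WT).

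Genes that build and serve the ribosome were called lower about as often as all genes (24.2%) in the lists for assembly, translation factors and import. Of all genes, 21.9% were called higher. Of 26 assembly and rRNA modification genes at a mean of 5 CPM or more, 3 were at least 1.5-fold higher and 7 lower, with a median of -0.17. Wbscr16, which takes part in assembly of the large subunit, had 21.6 CPM in the P2X1-KO-labelled library and 49.9 CPM in the WT-labelled library, 2.31-fold lower (1.97 to 2.72), and Mettl17, an assembly factor of the small subunit, was 1.94-fold lower (1.64 to 2.31). Higher were Rpusd3, of the pseudouridine synthase family, at a fold of 1.89 (1.46 to 2.45), and the methyltransferase Nsun4, at a fold of 1.68 (1.25 to 2.26).

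Of 13 translation factors 1 was higher and 3 lower, with a median of -0.12 that became 0.08 after length and GC correction. The ribosome recycling factor Mrrf had 24.2 CPM in the P2X1-KO-labelled library and 11.6 CPM in the WT-labelled library, a fold of 2.09 (1.70 to 2.56). The elongation factor Gfm1 had 24.8 CPM (labelled P2X1-KO) and 79.8 CPM (labelled WT), 3.22-fold lower (2.79 to 3.74), and the formyltransferase Mtfmt was 1.71-fold lower (1.47 to 1.99). The release factor Mtrf1l had a fold of 1.40 (1.16 to 1.69).

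None of the 20 mitochondrial aminoacyl-tRNA synthetases was at least 1.5-fold higher and 7 were lower, against 21.9% and 24.2% of all genes. Their median was -0.39. Nars2 had 3.38 CPM in the P2X1-KO-labelled library and 12.6 CPM in the WT-labelled library, 3.74-fold lower (2.54 to 5.69), and Iars2 had 66.9 CPM (labelled P2X1-KO) and 166 CPM (labelled WT), 2.49-fold lower (2.27 to 2.72). Yars2 had a fold of 0.825. It was named among the 2 highest only because genes whose intervals hold 1 tie in that ranking. Among 18 genes for mitochondrial DNA and its transcription, 1 was higher and 7 lower, against the same shares, with a median of -0.48. Slirp, which stabilises mitochondrial messengers, had 78.6 CPM in the P2X1-KO-labelled library and 29.0 CPM in the WT-labelled library, a fold of 2.71 (2.40 to 3.06), Hsd17b10 had a fold of 1.45, and the polymerase gene Polg was 2.01-fold lower and Pnpt1 2.08-fold lower.

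Most of the messengers that this ribosome translates stood lower. The 13 mitochondrially encoded protein genes took 2.69% of counts in the P2X1-KO-labelled library and 5.46% in the WT-labelled library, and their summed CPM was 1.79-fold lower. ND1 had 4857 CPM in the P2X1-KO-labelled library and 9667 CPM in the WT-labelled library, and ND4 had 1510 CPM (labelled P2X1-KO) and 2771 CPM (labelled WT). COX3 and ND3 had 87.6 and 25.4 CPM in the P2X1-KO-labelled library, and 71.3 and 18.5 CPM in the WT-labelled library. These are low levels for mitochondrial messengers. COX2, ATP6, ND6, ATP8 and ND4L were low too, at 149 CPM or less in both libraries. Since neither counter nor annotation is known, reads of all these genes may be split with other features, which was not tested. At 1.5-fold, 8 of 13 were lower, ATP8 and ND4L among them, and none higher, against 24.2% and 21.9% of all genes.

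Nuclear oxidative phosphorylation subunits, which join the proteins made from them, were at least 1.5-fold higher for 31 of 76 genes and lower for 1. Of all genes, 21.9% were higher and 24.2% lower. The median of these subunits was 0.42 and became -0.02 after length and GC correction. Atp5k had 202 CPM in the P2X1-KO-labelled library and 65.8 CPM in the WT-labelled library, a fold of 3.07 (2.84 to 3.32), Ndufa2 a fold of 3.04 (2.82 to 3.28), while Atp5g2 was 3.04-fold lower (2.0 to 4.77) and Atp5a1 1.49-fold lower. Genes of the protein import machinery, which brings the ribosomal proteins in, were higher for 4 of 27 and lower for 7, with a median of -0.16. Timm8b had a fold of 1.86 and Timm8a1 a fold of 1.95, and the import motor genes Hspa9 and Pam16 were 2.19-fold lower and 3.02-fold lower. Cytosolic ribosomal proteins, the counterparts outside mitochondria, were higher for 54 of 79 and lower for 1, against the same shares of all genes. Their median of 0.82 became 0.26 after correction. Rpl37a had a fold of 3.75 and Rpl39 a fold of 3.64, and Rpl27 was 1.86-fold lower and Rpl10a 1.38-fold lower. Shared sequence was examined for the mitochondrial ribosomal protein genes only. Whether reads of the cytosolic ones were split or pooled with other genes was not tested.

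**Figure D4:**
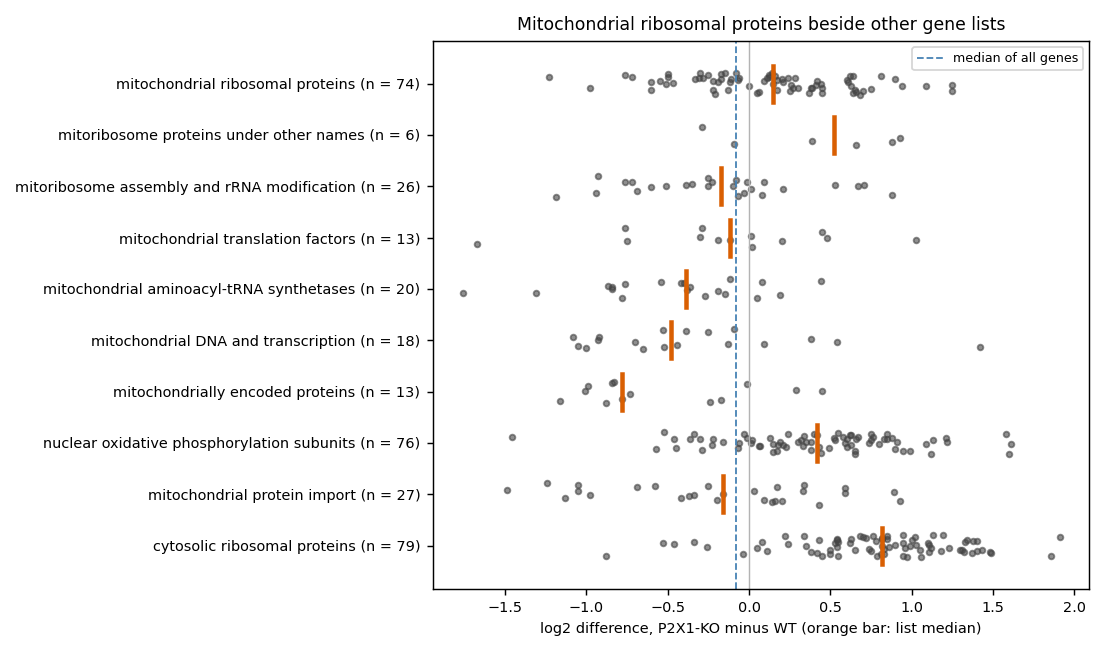
Log2 difference, P2X1-KO minus WT, of each gene with a mean of 5 CPM or more (points) by gene list, with n beside the name, 1 library a label. Orange bars are list medians, from 0.82 for cytosolic ribosomal proteins to -0.78 for the mitochondrially encoded genes, and 0.15 for the mitochondrial ribosomal proteins, a median that turns to -0.03 with total counts. The dashed line is the median of all genes, -0.08.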

How the data were processed

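The authors deposited a table of raw whole-number counts, 1 column per library and 1 line per gene symbol, per the file headers. Reads were aligned with HISAT2 2.0.4 to build mm10 (per the submitters' processing notes). What counted the reads, with which annotation and strand setting, and the library kit were not given in the sources used here. Calendar dates stood in place of 27 gene names.

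Counts were scaled with edgeR 4.0.16 in R 4.3.3 (TMM), giving effective library sizes of 8882591 for P2X1-KO and 15591519 for WT. Folds are ratios of CPM with exact Clopper-Pearson intervals at 95%, from scipy 1.17.1 in Python 3.11.15. They cover counting error only, because each group has 1 library. They are too narrow even for that where reads of 1 PCR origin are not independent molecules. Genes averaging 5 CPM or more (10483, of which 97.8% had a length and GC content) entered counts and medians, and adding 0.5 CPM before taking logs shrinks the differences of low genes. A count of 0 allows up to 3 counts, or 0.338 CPM in P2X1-KO and 0.192 CPM in WT. Lengths, coordinates and shared 31-base words came from GENCODE M21, which is on mm10, and promoters from RefSeq. The NRF1 word was shortened from 10 to 9 letters after the longer one had been counted. Scripts were tested on simulated data.

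The genes and all lists were chosen with earlier results of these data known. Named in full were the 10 genes highest and 10 lowest by the interval bound nearest to no change, the 5 most and 5 least abundant per length, all under 5 CPM, those at structural sites, and from each list the 2 highest and 2 lowest. A gene that this rule names is not reported here. Others were named after their values were seen. The alternatives tried were other scalings, pseudocounts, abundance filters and a length and GC correction, as well as 2 restrictions on shared sequence added after seeing the data.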

Additional observations from a re-analysis of the deposited data

How the results depend on the processing

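With 1 library a group, no replicate was left out and the spread between animals is unknown. No paired analysis was possible because each group has 1 library. Depth limits Mrpl40, Mrps18b and Mrps23 most, with 13 to 91 counts.

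The direction of the group's median turned with the scaling. It was 0.15 under TMM, -0.03 with total counts, -0.05 with totals without the 20 most abundant genes and -0.10 after length and GC correction. Those scalings moved the median of all genes by -0.18 and -0.20, so relative to it the group stood at 0.23 under TMM and under each other scaling alike, and at -0.10 after the correction. The large subunit median became -0.06, -0.07 and -0.10 under the same 3 alternatives, and the small subunit median -0.03, -0.05 and -0.06. The summed CPM ratio of 1.12 became 0.992 with total counts, 0.978 without the 20 most abundant genes and 1.19 with upper quartile scaling.

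Genes at least 1.5-fold higher numbered 17 under TMM (21.9% of all genes), 6 with total counts (16.9%) and 6 without the 20 most abundant genes (16.7%). They numbered 7 after length and GC correction and 10 among genes with at most 20% of words shared. For counts after the correction, here and below, the share of all genes is not given, so they cannot be set against a background. Those at least 1.5-fold lower numbered 6 under TMM (24.2% of all genes) and 11 with total counts (33.3%). They numbered 12 without the 20 most abundant genes (34.4%) and 12 after the correction. At 2-fold, where TMM called 12.1% of all genes higher and 10.6% lower, 3 higher genes became 1 among those with at most 20% of words shared. The 1 lower gene became 2 and 3 under the scalings (15.3% and 16.3% of all genes) and 3 after the correction. The restricted sets hold fewer genes, and the cause of the other shifts was not tested. Under TMM 45 of the 74 genes were above 0, against 45.8% of all genes. After length and GC correction 18 of these 45 genes were below 0, and 4 genes below 0 were above it. Among those at least 1.5-fold apart the sign turned for Mrps18c (-0.01) and Mrpl54 (-0.26). Of genes named for other reasons, Mrpl33 (-0.41), Mrpl20 (-0.56), Mrps36 (-0.38), Mrps18a (-0.41) and Mrpl10 (-0.08) were among those that turned. List medians turned for the translation factors (0.08) and the nuclear oxidative phosphorylation subunits (-0.02). Median-of-ratios scaling (DESeq2 1.42.0), other pseudocounts and other abundance filters moved none of these counts by over 1.5 times.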
